A study of Mus musculus with 40 samples.

Results

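Integrins are the cell surface receptors that tie cells to the surrounding matrix, and laminins are cross-shaped proteins of the basement membrane that many of them bind. The genes described here are those whose symbols begin with Itga or Itgb, apart from Itgb1bp1, Itgb3bp and Itgbl1, and those named Lama, Lamb or Lamc with a single digit. This pattern selected 38 of the 25462 genes in the female table and the same 38 of the 24930 genes in the male table. They are 26 integrin chains, 11 laminin chains and Itgb1bp2, which encodes melusin, a muscle protein that binds the integrin beta 1 tail and is not itself an integrin. The choice used the gene names and no measured value. Counts of members from here on cover 37 of them, the integrin chains, 10 laminin chains and Itgb1bp2.

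RNA was sequenced from the left ventricle of 10-week-old mice with or without a knockout of Rbm20, a splicing regulator of striated muscle whose mutation causes dilated cardiomyopathy. The study asked how females and males differ in this disease. The 4 groups were Rbm20 knockout females, wildtype females, Rbm20 knockout males and wildtype males, with 5 mice each. The labels give neither the knockout allele nor the strain, and they name no treatment. Each mouse gave 2 libraries, which were averaged, except that ko_f_154 is represented by 1, so that the mouse is the replicate. The depth was 2351987 to 16973229 reads per library (median 9043245). Values are normalised read counts, that is, reads divided by the size factor of their library. Each sex was scaled in its own table, so levels were tested only within a sex. Rbm20 itself was lower in every knockout mouse, at 289 to 555 in knockout females against 1000.9 to 1342 in wildtype females. Males showed the same, at 221 to 308 with the knockout and 795 to 894 without. Markers of cardiomyocytes were abundant in all mice, with a summed level of 456552 to 718381 for 10 genes. The ventricle also holds fibroblasts, endothelial cells, mural cells and blood cells, and in such bulk samples a change in the number of cells of a type cannot be told apart from a change in RNA per cell.

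An integrin is a pair of 1 alpha and 1 beta chain, and the alpha chain largely sets what the pair binds. Alpha 3, alpha 6 and alpha 7 bind laminin, alpha 5, alpha v, alpha 8 and alpha IIb recognise the RGD motif of fibronectin, vitronectin and similar proteins, alpha 1, alpha 2, alpha 10 and alpha 11 bind collagen, and alpha 7 with beta 1 is the main laminin receptor of mature muscle. A laminin is a trimer of 1 alpha, 1 beta and 1 gamma chain. Heart muscle is wrapped in laminins with the alpha 2 chain, whose loss causes a congenital muscular dystrophy, vessels carry the alpha 4 and alpha 5 chains, and the alpha 3 and beta 3 chains are best known from skin.

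Among the genes that rose in both sexes are Itga5, Itgb5, Itga9 and Lama2, and a window at an annotated start of each is shown because these genes moved together. The windows come from RefSeq on build GRCm38.p6, run from 250 bases before to 50 bases after the annotated start, and are written 5′ to 3′ on the strand of the gene. They lie at chr15:103366742-103367041 on the minus strand for Itga5, chr16:33829415-33829714 on the plus strand for Itgb5, chr9:118711442-118711741 on the plus strand for Itga9 and chr10:27616893-27617192 on the minus strand for Lama2. Capitals mark matches on either strand to 4 motifs: the GC box GGGCGG, the TATA box TATAAA, the AP-1 motif TGANTCA and the M-CAT motif CATTCC, which do not overlap one another here.
Itga5: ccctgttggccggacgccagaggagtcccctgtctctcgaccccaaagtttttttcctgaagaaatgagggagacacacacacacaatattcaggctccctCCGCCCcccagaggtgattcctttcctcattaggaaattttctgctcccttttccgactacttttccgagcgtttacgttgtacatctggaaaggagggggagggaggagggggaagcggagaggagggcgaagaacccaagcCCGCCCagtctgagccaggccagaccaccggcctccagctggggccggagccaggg
Itgb5: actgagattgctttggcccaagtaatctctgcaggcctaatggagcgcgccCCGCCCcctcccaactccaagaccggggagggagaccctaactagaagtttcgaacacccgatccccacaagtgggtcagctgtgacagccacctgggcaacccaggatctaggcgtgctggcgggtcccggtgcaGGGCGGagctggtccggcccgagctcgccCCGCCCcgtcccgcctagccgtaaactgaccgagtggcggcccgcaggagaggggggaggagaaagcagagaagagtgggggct
Itga9: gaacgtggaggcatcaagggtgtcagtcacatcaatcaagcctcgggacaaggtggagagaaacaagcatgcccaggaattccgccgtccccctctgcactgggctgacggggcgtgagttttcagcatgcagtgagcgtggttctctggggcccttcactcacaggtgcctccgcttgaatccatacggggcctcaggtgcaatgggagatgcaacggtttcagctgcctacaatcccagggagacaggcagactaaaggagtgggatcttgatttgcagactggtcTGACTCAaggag
Lama2: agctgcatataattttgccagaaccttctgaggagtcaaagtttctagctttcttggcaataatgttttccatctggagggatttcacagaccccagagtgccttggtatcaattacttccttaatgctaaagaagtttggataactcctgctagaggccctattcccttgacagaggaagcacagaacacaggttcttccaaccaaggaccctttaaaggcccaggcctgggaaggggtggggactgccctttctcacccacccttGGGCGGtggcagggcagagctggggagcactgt
The Itgb5 window holds 3 GC boxes, the Itga5 window 2 and the Lama2 window 1. The Itga9 window holds no GC box and 1 AP-1 match, and TATAAA and CATTCC occur in none of these 4 windows. Over all 32851 mouse windows of this length in the RefSeq table, GGGCGG was found in 35.7%, TATAAA in 13.6%, TGANTCA in 7.81% and CATTCC in 14.7%. The share of G and C was 65.7% for Itgb5, 58.7% for Itga5, 56.7% for Itga9 and 50.3% for Lama2, against a median of 52.7% over all windows. A match is a run of letters, and binding was not measured. Gene positions below are on GRCm39, and whether each window lies at the outer end of its gene was not checked. The Itga9 window in particular may mark a start within the gene. Of the 9 members described below mouse by mouse, 8 have an entry in the table, and Lamc3 does not.

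Of the 37 members, 29 reached the minimum mean of 10 normalised reads and were tested, in females as in males. In females 5 members were higher in knockout mice and 1 was lower, which is 17.2% and 3.45% of those tested, by limma on log2(value + 1) with Benjamini-Hochberg adjusted p under 0.05. Of all 12781 genes tested in females, 5.28% were higher and 5.51% were lower. In males 5 members were higher and 2 were lower, which is 17.2% and 6.90% of those tested, against 7.6% higher and 8.29% lower among all 12506 genes. The median log2 change of the tested members was 0.0067 in females and -0.0014 in males, beside 0.0014 and -0.0012 for all genes, with 15 of the 29 above 0 in females and 14 in males. The rising members were Itga5, Itga9, Itgb5 and Lama2 in both sexes, with Itga8 in females and Itgav in males. The falling members were Lamb3 in both sexes and Itga2b in males. Thus 5 members passed the threshold in both sexes in the same direction, among 6 female and 7 male calls. The comparisons share no mice. The overlap of calls over all genes was not counted, so this is not shown to be particular to the members.

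**Figure D1:**
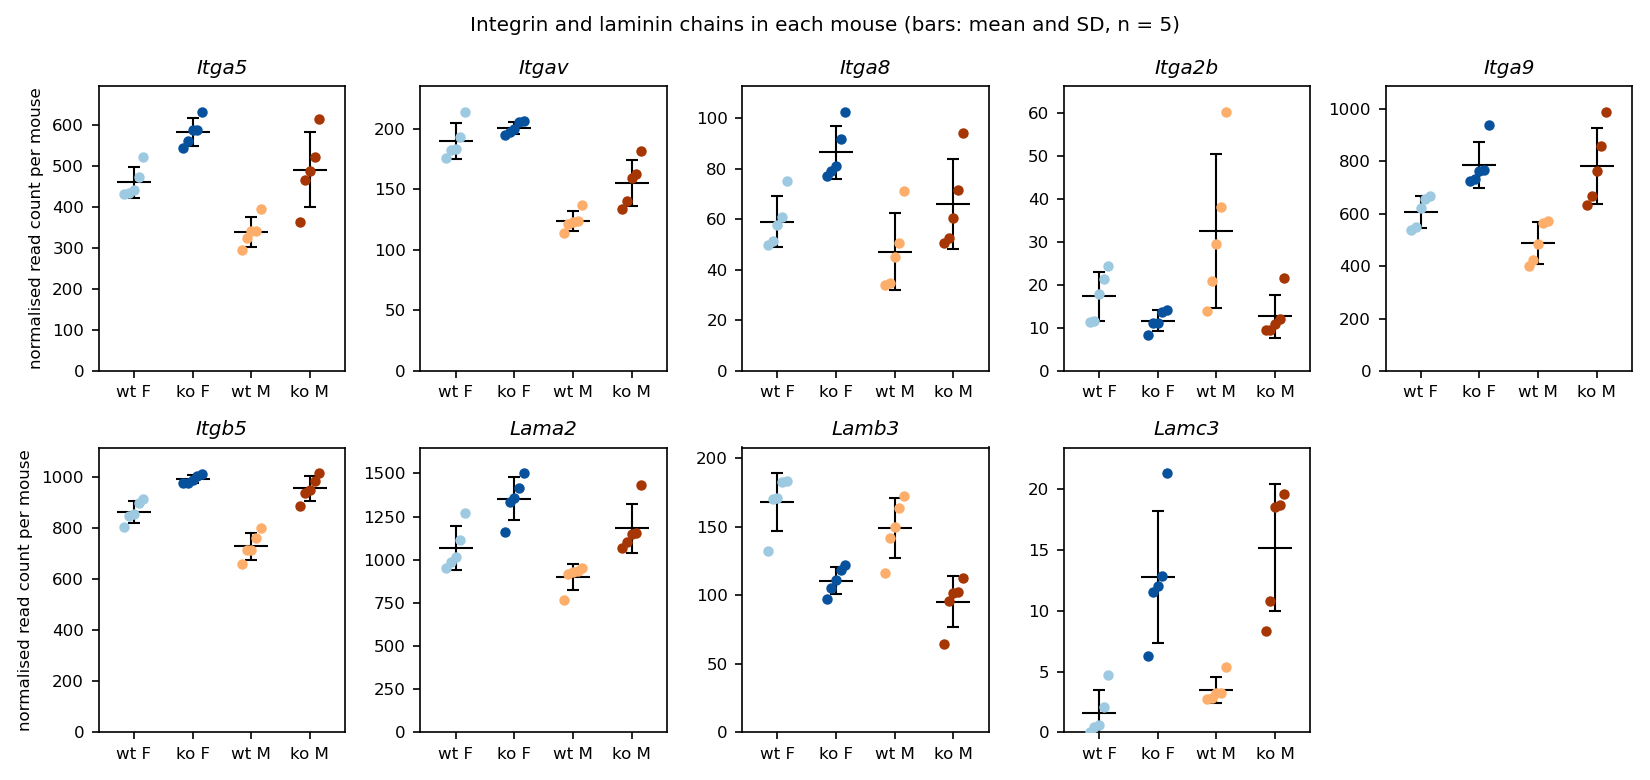
Normalised read count of 9 integrin and laminin genes in each mouse, by group, with wt for wildtype, ko for knockout, F for female and M for male. Points are mice and bars are the mean and SD of 5 mice. Each panel has its own axis from 0, and the knockout mice lie wholly below the wildtype mice for Lamb3 and wholly above them for Lamc3, Itga9 and Itgb5 in both sexes.

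Itga5 encodes the alpha chain of the classical fibronectin receptor and lies at chr15:103252713-103275190 on the minus strand of GRCm39 (ENSMUSG00000000555.9). In knockout females its normalised read counts were 544, 561, 589, 589 and 632, and in wildtype females they were 431, 434, 443, 473 and 521. The groups did not overlap, and the knockout level was 1.27-fold that of wildtype (log2 change 0.34 ± 0.07 SE, limma adjusted p = 0.0065). In knockout males the counts were 363, 466, 488, 523 and 616, and in wildtype males 295, 326, 341, 342 and 396. Here the lowest knockout mouse, ko_m_128, lay below the highest wildtype mouse, and the ratio was 1.43-fold (log2 change 0.52 ± 0.12 SE, adjusted p = 0.0075). Beta 1 is the chain with which alpha 5 pairs, and its gene is described with the beta chains.

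Itgav encodes alpha v, the partner of beta 1, beta 3, beta 5, beta 6 and beta 8, and lies at chr2:83554741-83637260 on the plus strand of GRCm39 (ENSMUSG00000027087.12). In knockout males its counts were 134, 139.9, 159, 163 and 181, and in wildtype males 114, 122, 123, 123.9 and 137. Only the lowest knockout mouse fell within the wildtype range, and the ratio was 1.25-fold (log2 change 0.32 ± 0.09 SE, adjusted p = 0.027). The call was lost when any of 7 mice was left out: the adjusted p was 0.057 without ko_m_106, 0.063 without ko_m_97, 0.063 without ko_m_127, 0.059 without wt_m_113, 0.055 without wt_m_124, 0.053 without wt_m_125 and 0.059 without wt_m_139. In knockout females the counts were 195, 197, 199.9, 205 and 207, against 176, 183, 183, 193 and 214 in wildtype females. These ranges overlapped, with a log2 change of 0.08 and a 95% interval of -0.06 to 0.23 (adjusted p = 0.48).

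Itga8 encodes alpha 8, which pairs with beta 1 and is found on mural cells and fibroblasts, and lies at chr2:12111443-12306733 on the minus strand of GRCm39 (ENSMUSG00000026768.11). Its counts in knockout females were 77.4, 79.4, 81.3, 92.0 and 103, and in wildtype females 49.96, 51.6, 57.8, 61.1 and 75.2. No wildtype female reached a knockout female, and the ratio was 1.46-fold (log2 change 0.55 ± 0.12 SE, adjusted p = 0.012). In males the knockout counts were 50.7, 52.8, 60.4, 71.7 and 94.2 and the wildtype counts 34.1, 34.8, 45.04, 50.5 and 71.4. The male groups overlapped through wt_m_112, and the log2 change of 0.49 did not pass the threshold (95% interval 0.06 to 0.92, adjusted p = 0.12). Without wt_m_112 it was 0.65 with an adjusted p of 0.026. The overlapping antisense gene E030013I19Rik stood at a mean of 2.4 or less in every group, against 47.2 to 86.5 for Itga8.

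Itga2b encodes alpha IIb, the alpha chain of the platelet fibrinogen receptor, and lies at chr11:102344123-102360948 on the minus strand of GRCm39 (ENSMUSG00000034664.14). In knockout males its counts were 9.47, 9.5, 10.8, 12.003 and 21.5, and in wildtype males 13.8, 20.98, 29.4, 38.2 and 60.2. Both groups spread widely and overlapped, since ko_m_127 lay above the lowest wildtype males. That mouse has both the deepest and the shallowest library of the series, with 16973229 and 2351987 reads. The libraries were averaged with equal weight, so its value leans on few reads of the shallow library. The male ratio was 0.438 (log2 change -1.19 ± 0.32 SE, adjusted p = 0.020), with an adjusted p of 0.058 without wt_m_124. In females the counts were 8.32, 11.1, 11.1, 13.6 and 14.2 in knockout mice and 11.3, 11.6, 17.97, 21.3 and 24.3 in wildtype mice. The female log2 change of -0.49 did not pass the threshold (95% interval -1.01 to 0.03, adjusted p = 0.23). The gene rests on few reads, 18 to 39 in a knockout male and 29 to 111 in a wildtype male.

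Platelet and red blood cell genes moved with Itga2b in males. Of 9 genes in a list of platelet and megakaryocyte markers, 5 were tested in males. Gp9, of the platelet surface, is left out of the count because it reached the filter only through the wildtype males, and of the other 4 genes Pf4, Ppbp and Clec1b were lower in knockout mice, while Gp1ba had a log2 change of 0.28 (limma adjusted p = 0.28). With Gp9 included, the summed level of the list was 134 to 171 in knockout males and 189 to 787 in wildtype males. These ranges did not overlap. Ppbp was highest at 385 in wt_m_139, the mouse with the most Itga2b. Among wildtype males it was lowest in wt_m_125, the wildtype male with the least Itga2b. In females 4 of these markers were tested and 1, Clec1b, was lower in knockout mice, with summed levels of 133 to 194 against 166 to 233. Of the 8 listed markers that each table holds, none was at 0 in all mice of a sex. Of 4 tested red blood cell genes, Hbb-bt at 0.56-fold and Alas2 at 0.589-fold were lower in knockout males (limma adjusted p = 0.0092 and 0.015), and none passed in females. The part of platelet or blood content in the Itga2b result was not tested.

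**Figure D2:**
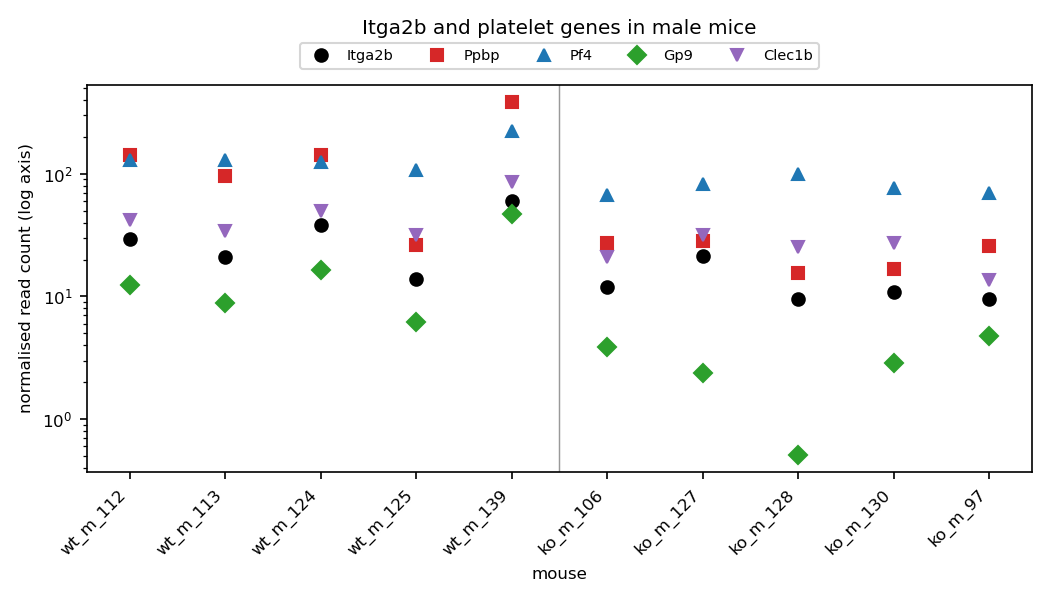
Normalised read count, on a log axis, of Itga2b and of 4 platelet genes in each male mouse, wildtype mice left of the line and knockout mice right of it. In wt_m_139 Itga2b (60.2), Ppbp (385) and Pf4 (222) are all at their highest. Gp9 is drawn although it reached the filter only through the wildtype males.

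Itga9 encodes alpha 9, a beta 1 partner that binds tenascin C, osteopontin and vascular growth factors and is prominent in lymphatic vessels, and lies at chr9:118435758-118730071 on the plus strand of GRCm39 (ENSMUSG00000039115.14). In knockout females its counts were 726, 734, 764, 768 and 937, and in wildtype females 537, 551, 620.3, 655 and 669. The groups were separate, with ko_f_155 well above the other knockout females, and the ratio was 1.29-fold (log2 change 0.37 ± 0.09 SE, adjusted p = 0.014). In knockout males the counts were 632, 667, 762, 859 and 989, and in wildtype males 402, 422, 484, 566 and 574. Every knockout male was again above every wildtype male, and the ratio was 1.59-fold (log2 change 0.67 ± 0.13 SE, adjusted p = 0.0023). The antisense genes Gm2415 and Gm10157 overlap Itga9 and had means of at most 5.01. Of 7 lymphatic endothelial markers, 2 rose in each sex, Ccl21a and Mmrn1 in females and Pdpn and Ccl21a in males, with summed levels of 1562 to 1974 in knockout and 1482 to 1819 in wildtype females and of 1119 to 1443 and 1089 to 1292 in males. Prox1 had log2 changes of -0.33 in females (limma adjusted p = 0.053) and -0.10 in males (0.56), and Lyve1 had 0.11 and -0.35 (0.70 and 0.11). Reln had 0.45 and 0.18 (0.17 and 0.66), and Flt4 had 0.20 and -0.04 (0.31 and 0.85). Pdpn in females had 0.29 (0.16), and Mmrn1 in males had 0.38 (0.27). Whether Prox1 and Lyve1 report only lymphatic cells in these samples was not tested. The part of lymphatic cells in the Itga9 values was not tested. Itga4, the related alpha 4 chain of leukocytes, passed in neither sex, with log2 changes of 0.14 in females and -0.0014 in males.

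The laminin-binding alpha chains did not pass the threshold in either sex. Itga7 was the most abundant alpha chain per length, at 126 ± 5.89 normalised reads per kilobase (SD, n = 5) in wildtype females and 139.2 ± 13.5 in knockout females, and its log2 change was 0.14 in females (95% interval -0.02 to 0.29) and 0.10 in males (-0.13 to 0.32). Itga6, shared by vessels and many epithelia, had counts of 227, 268, 278, 283 and 323 in knockout females and 315, 328, 329.9, 331 and 343 in wildtype females. Those groups overlapped only through ko_f_95, and the log2 change was -0.26 with an adjusted p of 0.059, just outside the threshold. Without ko_f_95 it was -0.32 with an adjusted p of 0.021. In males the log2 change of Itga6 was 9.1e-05 with an interval of -0.25 to 0.25. Itga3 changed by 0.08 in females and -0.18 in males on the log2 scale, with adjusted p of 0.77 and 0.41.

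None of the collagen-binding or leukocyte alpha chains passed either. Itga1, the collagen receptor chain of smooth muscle and capillaries, had log2 changes of -0.15 in females and -0.0079 in males. Itga11, a fibroblast receptor for fibrillar collagen, stood at a mean of 37.4 ± 8.11 (SD, n = 5) in knockout males and 26.3 ± 3.32 in wildtype males, and its log2 change of 0.47 lay just outside the threshold (95% interval 0.14 to 0.81, adjusted p = 0.054). It passed when 1 of 3 male mice was left out, with an adjusted p of 0.037 without ko_m_128, 0.024 without ko_m_130 and 0.046 without wt_m_139. It also passed with TMM scaling (adjusted p = 0.042), by edgeR (0.034), by DESeq2 (0.023) and in the authors' deposited table (0.0053). In females Itga11 changed by 0.17 (adjusted p = 0.58). Itga2 and Itga10 were below the filter in both sexes. Of the leukocyte chains, Itgal and Itgam were tested with adjusted p of 0.20 and 0.59 in females and 0.87 and 0.29 in males, while Itgad, Itgae and Itgax stayed below the filter. Itgax, the alpha chain of dendritic cells and macrophages, had means of 6.44 ± 1.96 in knockout males and 2.27 ± 1.12 in wildtype males, and 3.78 ± 0.961 and 4.32 ± 1.26 in knockout and wildtype females.

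Itgb5 was the only 1 of 7 tested beta chains that passed in either sex, and it passed in both. It encodes beta 5, which pairs with alpha v to bind vitronectin and to activate latent TGF-beta, and lies at chr16:33650035-33769708 on the plus strand of GRCm39 (ENSMUSG00000022817.16). In knockout females the counts were 975, 977, 989, 1002 and 1012, and in wildtype females 803, 848, 853, 897 and 912. In knockout males they were 887, 938, 949, 984 and 1013, and in wildtype males 659.9, 713, 714, 759.6 and 799. All knockout mice lay above all wildtype mice of their sex, and the knockout values were tightly grouped. The ratio was 1.15-fold in females (log2 change 0.20 ± 0.05 SE, adjusted p = 0.027) and 1.31-fold in males (0.39 ± 0.07 SE, adjusted p = 0.0013). The female call rested on single mice, with an adjusted p of 0.054 without ko_f_95, 0.056 without ko_f_154, 0.063 without wt_f_140 and 0.067 without wt_f_143. It was 0.11 without the 3 females with a Myl7 level of at least 500.

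Itgb1, the common partner of the laminin, collagen and fibronectin receptors, was by far the most abundant beta chain and varied little. It stood at 880.0 ± 42.7 normalised reads per kilobase (SD, n = 5) in female knockouts and 916 ± 20.3 in female wildtypes, and at 780.3 ± 20.04 and 787 ± 34.0 in the corresponding males. Its log2 change had a 95% interval of -0.18 to 0.06 in females and -0.15 to 0.13 in males. Itgb6, an epithelial partner of alpha v that activates TGF-beta, had counts of 84.1, 92.6, 115, 115 and 119 in knockout females and 111, 119, 138, 185 and 236 in wildtype females. The groups overlapped and the log2 change of -0.54 did not pass (95% interval -0.94 to -0.13, adjusted p = 0.088). Itgb2, Itgb3, Itgb4 and Itgb8 had log2 changes of -0.0097, 0.19, 0.17 and 0.53 in females and -0.12, -0.25, -0.20 and 0.45 in males, none past the threshold, and Itgb7 was below the filter. Itgb1bp2 stood at 969 ± 89.8 per kilobase in wildtype females, near Itgb1, and at 965 ± 114 in wildtype males, above Itgb1. Its counts were 1160, 1317, 1496, 1543 and 1671 in knockout males and 1500.3, 1614, 1713, 1815 and 2038 in wildtype males, which overlapped, and the log2 change of -0.28 missed the threshold (adjusted p = 0.089) but had an adjusted p of 0.049 without ko_m_97. In females it was -0.03 (95% interval -0.18 to 0.12).

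**Figure D3:**
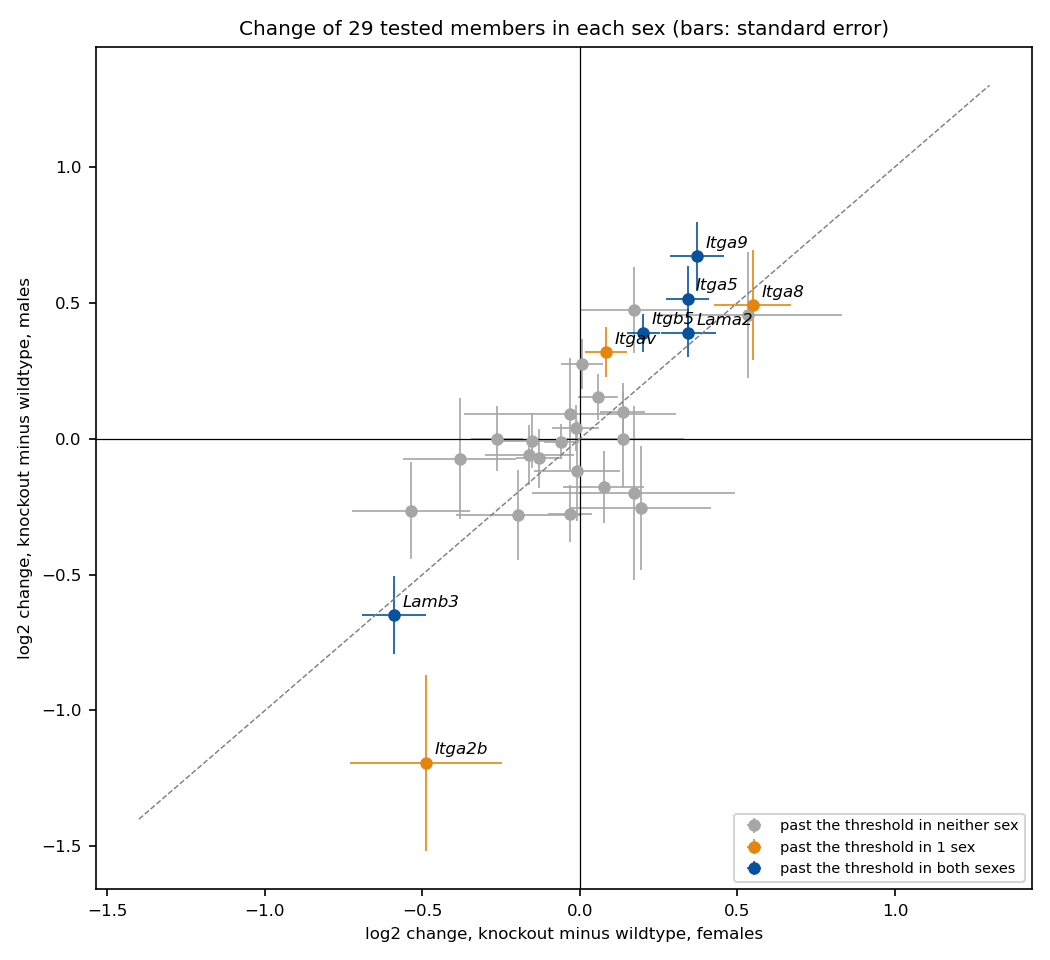
Log2 change from wildtype to knockout of the 29 tested members, in females on the horizontal axis and males on the vertical axis, with standard errors as bars and the line of equal change dashed. Itga9 lies to the upper right at 0.37 and 0.67, Lamb3 lies to the lower left at -0.59 and -0.65, and most grey points, which passed in neither sex, sit near the centre.

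Lama2 was the laminin alpha chain that rose. It encodes the alpha 2 chain of the muscle basement membrane and lies at chr10:26856032-27495754 on the minus strand of GRCm39 (ENSMUSG00000019899.18). Its counts in knockout females were 1159, 1337, 1359, 1414 and 1501, and in wildtype females 949.9, 987, 1019, 1113 and 1272. Only ko_f_151 and wt_f_142 crossed, and the ratio was 1.27-fold (log2 change 0.34 ± 0.09 SE, adjusted p = 0.025). The female call was lost without 1 of 5 mice, with adjusted p of 0.063 without ko_f_95, 0.052 without ko_f_154, 0.052 without ko_f_155, 0.067 without wt_f_140 and 0.066 without wt_f_141. In knockout males the counts were 1068, 1104, 1147, 1157 and 1431, and in wildtype males 768, 917, 929, 933 and 953. The male groups were separate, with ko_m_127 highest and wt_m_139 lowest, and the ratio was 1.31-fold (log2 change 0.39 ± 0.09 SE, adjusted p = 0.0069). The genes Gm36962 and 4930579H20Rik inside Lama2 had means of at most 1.63.

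The vessel chains Lama4 and Lama5 did not pass. Lama4 had a log2 change of -0.01 in females (95% interval -0.17 to 0.15) and 0.04 in males (-0.14 to 0.22), and Lama5 had -0.16 (-0.47 to 0.15) and -0.06 (-0.29 to 0.17). Lama3, the chain of skin laminin, was near the filter with group means of 11.5 to 15.99 and changed by -0.03 and 0.09. Lama1, the alpha chain of early embryos, had 0.541 ± 0.333 normalised reads in wildtype males and none in knockout males. Lama2, Lama4 and Lama5 together made up nearly all of the alpha chain signal per length. Lama2 took 34.1 ± 1.75% (SD, n = 5) of it in wildtype females and 41.0 ± 2.15% in knockout females, and 37.04 ± 1.85% and 43.6 ± 0.51% in males. Lama4 took 35.4 ± 4.03% and 33.03 ± 2.27% in females, and Lama5 29.8 ± 2.51% and 25.4 ± 3.62%.

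Lamb3 was the laminin gene that fell. It encodes the beta 3 chain of skin laminin and lies at chr1:192890007-193026186 on the plus strand of GRCm39 (ENSMUSG00000026639.19). In knockout females its counts were 96.9, 105, 111, 118 and 122, and in wildtype females 132, 170.2, 171, 183 and 183. In knockout males they were 64.1, 95.6, 102, 102 and 112.4, and in wildtype males 116, 141.8, 149.6, 164 and 173. No knockout mouse reached a wildtype mouse of its sex, and the ratio was 0.664 in females (log2 change -0.59 ± 0.10 SE, adjusted p = 0.0026) and 0.638 in males (-0.65 ± 0.14 SE, adjusted p = 0.0056). Whether reads were counted by strand is not stated in the sources used here, and the Lamb3 interval in the files also holds G0s2 and Hsd11b1 on the opposite strand and Gm37691 on its own. G0s2, an inhibitor of fat breakdown, was at 468 ± 157 in knockout and 633 ± 205 in wildtype females and at 371 ± 72.4 and 487 ± 77.1 in males (log2 changes -0.43 and -0.40, adjusted p = 0.29 and 0.074). Gm37691 was at 35.0 ± 5.10 and 47.5 ± 5.06 in females (log2 change -0.44, adjusted p = 0.039) and at 31.6 ± 3.65 and 34.8 ± 4.07 in males (-0.14, adjusted p = 0.53). Hsd11b1 did not pass in either sex. Reads of Lamb3 and of these neighbours may not be fully separated, and their part in the Lamb3 values was not tested.

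The other beta chains dominate the heart. Lamb2, a beta chain of muscle and vessel basement membranes, took 80.9 ± 1.14% (SD, n = 5) of the beta chain signal per length in wildtype females and 80.5 ± 1.39% in knockout females, Lamb1 took 15.2 ± 0.715% and 16.7 ± 1.27%, and Lamb3 3.92 ± 0.645% and 2.81 ± 0.373%. Lamb2 had a log2 change of -0.13 in females (95% interval -0.29 to 0.03) and -0.07 in males (-0.30 to 0.16). Lamb1 changed by 0.0067 in females (-0.14 to 0.15). In males Lamb1 stood at a mean of 889.8 ± 142.2 in knockout mice and 730.0 ± 46.6 in wildtype mice, with a log2 change of 0.27 just outside the threshold (95% interval 0.08 to 0.47, adjusted p = 0.060), and it had an adjusted p of 0.045 without ko_m_130, 0.042 by DESeq2 and 0.00071 in the authors' deposited table.

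Lamc3 encodes the gamma 3 chain and lies at chr2:31777303-31836551 on the plus strand of GRCm39 (ENSMUSG00000026840.15). Its mean was below the filter, so it was not tested in the main comparison. In knockout females its counts were 6.25, 11.5, 12.1, 12.8 and 21.3, and in wildtype females 0, 0.461, 0.629, 2.05 and 4.74. In knockout males they were 8.32, 10.8, 18.5, 18.7 and 19.5, and in wildtype males 2.78, 2.84, 3.26, 3.27 and 5.35. The groups were separate in both sexes, on 9 to 42 reads in a knockout female, 0 to 10 in a wildtype female, 17 to 69 in a knockout male and 5 to 13 in a wildtype male. With the filter lowered to a mean of 1, the log2(value + 1) difference was 2.62 in females (limma adjusted p = 0.0023) and 1.80 in males (adjusted p = 0.00018). Lamc1, the common gamma chain, did not pass, and its log2 change was 0.06 in females (95% interval -0.08 to 0.19) and 0.15 in males (-0.03 to 0.34).

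**Figure D4:**
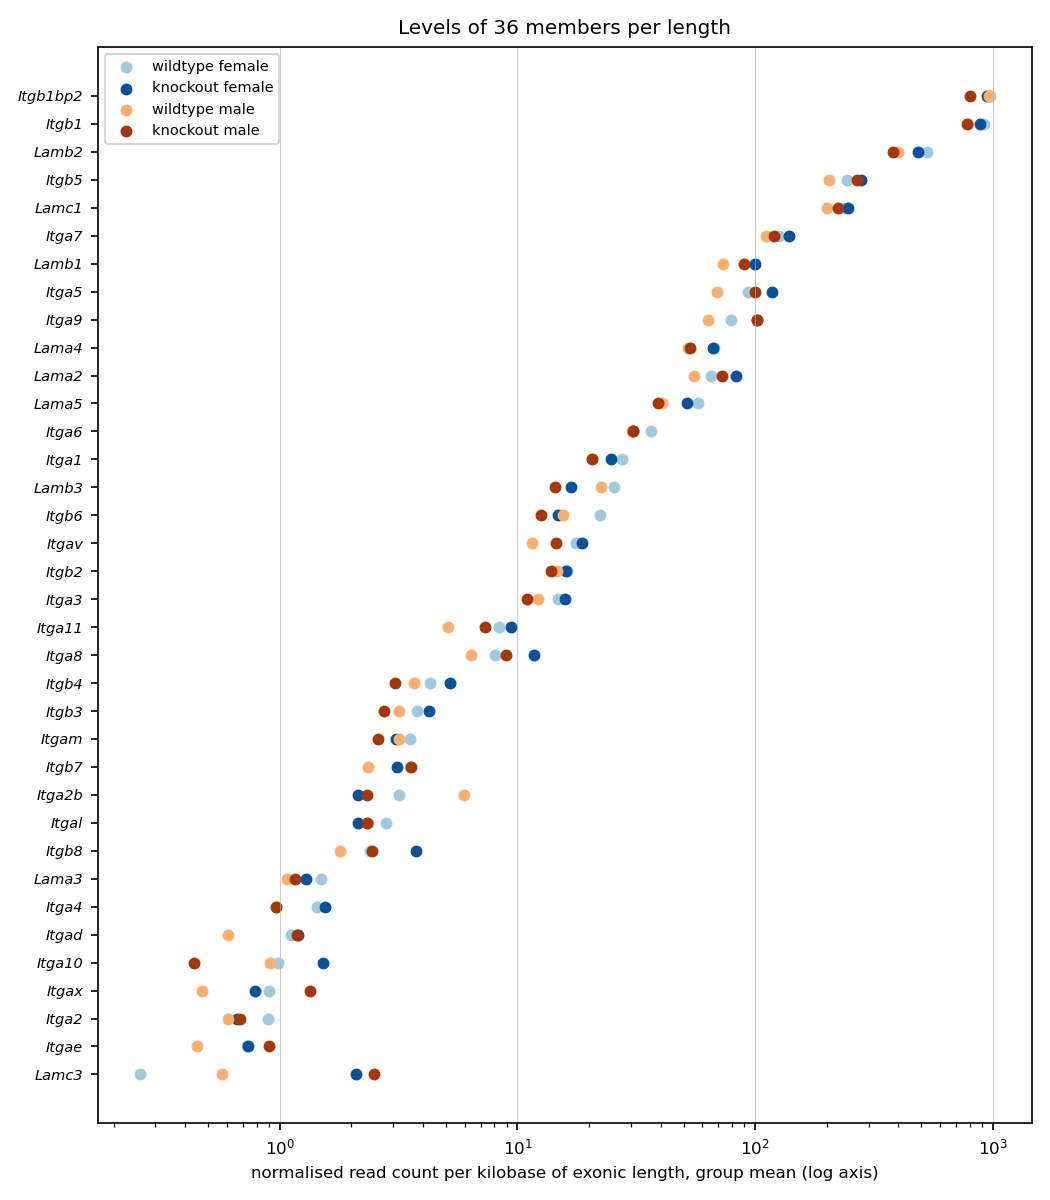
Group mean of the normalised read count per kilobase of exonic length for 36 members, on a log axis, ordered by the wildtype female level. Lama1 is not drawn because its mean is 0 in knockout males. Itgb1bp2, Itgb1 and Lamb2 are at the top, and Lamc3 shows the widest gap between knockout and wildtype.

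The 6 highest levels per length had the same order in all 4 groups. After Itgb1bp2 and Itgb1 came Lamb2 at 527 ± 33.8 normalised reads per kilobase in wildtype females, Itgb5 at 243 ± 12.2 and Lamc1 at 236 ± 15.9. The last 2 overlapped in their mean ± SD. Levels of different genes were not tested against each other, and the SD holds no error of the length used. Itga7 at 126 ± 5.89, Lamb1 at 99.2 ± 4.86 and Itga5 at 93.3 ± 7.67 followed, and Lamb1 and Itga5 again overlapped in this way. Itga9 stood at 78.9 ± 7.83, Lama4 at 67.3 ± 4.57, Lama2 at 65.4 ± 7.89 and Lama5 at 57.3 ± 8.51, and Lama4 and Lama2 overlapped likewise. In knockout females Lama2 stood at 82.9 ± 7.72 and Lama4 at 66.8 ± 6.44. Among alpha chains Itga5 took 21.9 ± 1.05% of the summed signal per length in wildtype females and 24.4 ± 1.82% in knockout females, and 19.95 ± 1.62% and 23.3 ± 2.29% in males. Itgb5 took 20.1 ± 0.88% of the beta chain signal in wildtype females and 23.1 ± 0.536% in knockout females, and 19.9 ± 1.51% and 24.7 ± 1.26% in males. These shares were described and not tested.

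No member's knockout change differed between males and females past the threshold. The difference, the change in males minus that in females, was fitted by limma for 12651 genes, of which 0% passed (0 genes). At an unadjusted p under 0.05 there were 1031 genes, or 8.15%, and 3 of the 29 members, Itgb5, Lamb1 and Itgav. Their differences were 0.19 (95% interval 0.02 to 0.35, unadjusted p = 0.028, limma adjusted p = 0.52), 0.27 (0.02 to 0.51, unadjusted p = 0.032, adjusted p = 0.54) and 0.24 (0.0076 to 0.46, unadjusted p = 0.043, adjusted p = 0.58). edgeR on the recovered reads passed 0 genes and DESeq2 49 genes, none of them a member. The interval was -0.44 to 0.33 for Lamb3 and -1.60 to 0.20 for Itga2b, so a difference of either sign lay within these bounds.

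The deposited exon tables were searched for the members because Rbm20 acts on splicing. They list parts of genes, called exon bins, with the authors' DEXSeq test of whether the share of a bin in its gene differs, and they hold only bins with an unadjusted p under 0.05. In females 35 bins of 14 members are listed in the authors' deposited table and none had an adjusted p under 0.05, while 6.09% of all listed bins with an adjusted p did. In males bins of 24 members are listed in the authors' deposited table, and 4 bins of 3 members passed, against 11.6% of all listed bins. Of the 86 male bins of members with an adjusted p, 4 passed. The position of a bin in its gene is not given.

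For Itgb1 bin 13 in males the authors' deposited table gave an adjusted p of 0.0039. Its values were 42.7, 42.9, 45.6, 46.3 and 48.2 per 1000 gene reads in knockout males and 31.8, 36.8, 39.1, 40.4 and 40.4 in wildtype males, without overlap. Itgb1bp2 had bin 4 with an adjusted p of 0.0021 and bin 12 with 0.033 in the authors' deposited table. Bin 4 was higher in knockout males, 206 ± 8.60 against 183 ± 10.5 per 1000 gene reads (SD, n = 5) with overlapping ranges, and bin 12 was lower, 131 ± 5.63 against 147 ± 4.36, with separate ranges. Itgb8 bin 1, with an adjusted p of 0.036 in the authors' deposited table, held most reads of that gene, 899 ± 61.5 in knockout and 958 ± 17.6 in wildtype males, on 29 to 81 gene reads per mouse and with overlapping ranges. None of these 4 bins is listed in the female table.

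**Figure D5:**
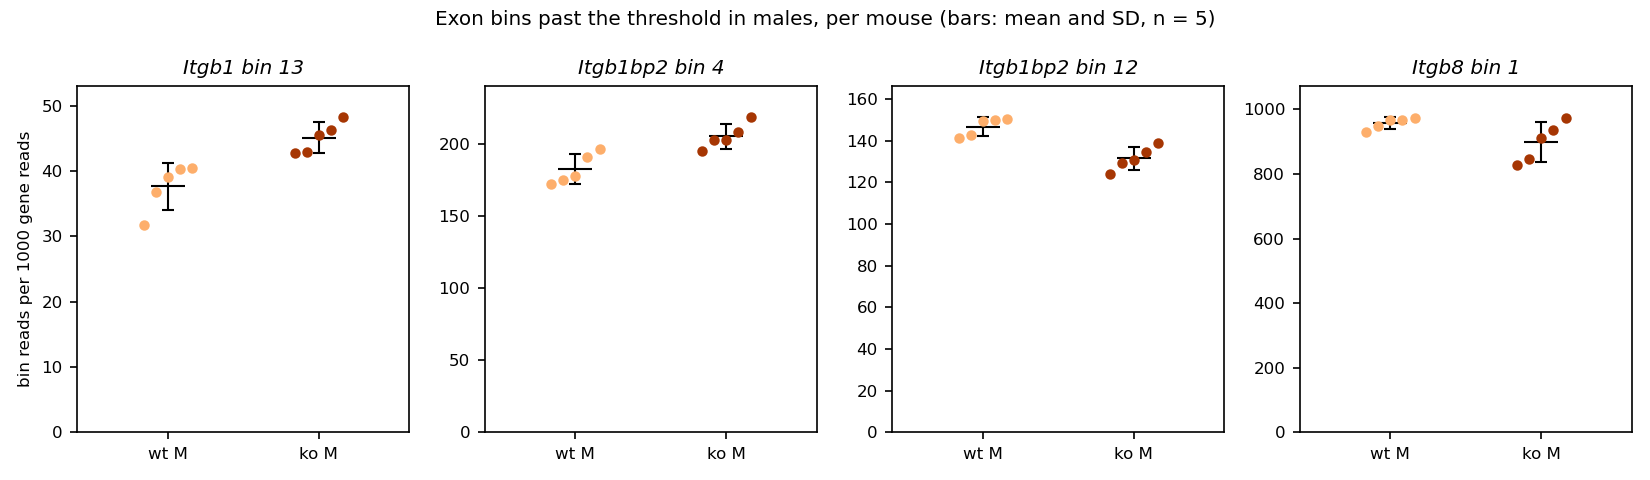
Reads in each exon bin per 1000 reads of its gene in male mice, for the 4 bins of members that passed in the authors' deposited table. Points are mice and bars are the mean and SD of 5 mice, with axes from 0. The groups are separate for Itgb1 bin 13 and Itgb1bp2 bin 12 and overlap for Itgb1bp2 bin 4 and Itgb8 bin 1.

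Genes that work with the members were read from 4 lists. Of the integrin adaptors and signalling proteins, such as talin, kindlin and focal adhesion kinase, 32 were tested in each sex apart from Itgb1bp2, 2 were higher and none was lower, with a median log2 change of 0.05 in females and 0.08 in males. Of all genes tested, 5.28% were higher and 5.51% lower in females, and 7.6% and 8.29% in males. The count of higher adaptors was thus near the share among all genes. The adaptors that rose were Zyx, which encodes the focal adhesion protein zyxin, in both sexes (log2 change 0.39 ± 0.10 SE, limma adjusted p = 0.030 in females and 0.32 ± 0.07, 0.0083 in males), Itgb3bp, whose protein is also a kinetochore component, in females (0.43 ± 0.12, 0.045) and Rsu1 in males (0.26 ± 0.08, 0.039). Of 20 genes of the dystrophin complex, the other laminin receptor of muscle, Dmd rose in both sexes, from a mean of 935 ± 141.6 to 1182 ± 102 in females (0.35 ± 0.10, 0.039) and from 698 ± 56.0 to 1037 ± 105 in males (0.57 ± 0.08, 0.00027). Dtna, encoding dystrobrevin alpha, rose in males (0.37 ± 0.08, 0.0059), and none of these 20 fell.

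Of the other basement membrane components, 3 of 20 tested genes were higher and 2 lower in females, leaving out Frem1, and 4 of 20 were higher and 2 lower in males. Col4a5, a chain of type IV collagen, rose in both sexes (log2 change 0.59 ± 0.10 SE, limma adjusted p = 0.0029 in females and 0.78 ± 0.09, 5.6e-05 in males), and Ntn1, the laminin-related netrin 1, fell in both (-0.54 ± 0.12, 0.0094 and -0.60 ± 0.10, 0.0012). Col4a4 also rose in both (0.67 ± 0.12, 0.0044 and 0.70 ± 0.18, 0.014). Col15a1 (0.91 ± 0.13, 0.00025) and Smoc2 (0.52 ± 0.13, 0.012) rose in males, with log2 changes of 0.27 and 0.09 in females (adjusted p = 0.15 and 0.69). Frem1 had a mean of 20.1 ± 8.43 in knockout and 4.80 ± 1.91 in wildtype females and reached the filter only through the knockout mice. Integrin ligands other than laminins had the largest share of changed genes among the 4 lists. In females 10 of 28 tested genes were higher and none lower, and in males 10 of 27 were higher and 2 lower. The median log2 changes were 0.40 and 0.33. The lists were chosen with earlier results of these data known, so their order is a description and not a test. Tgfb2, whose latent form lacks the RGD motif found in the other TGF-beta precursors, rose 2.54-fold in females and 3.35-fold in males (1.34 ± 0.17, 0.00046 and 1.74 ± 0.20, 4.0e-05). Tgfb3 rose 1.36-fold and 1.48-fold, and Col1a1 1.65-fold and 1.80-fold. Col1a2 rose 1.52-fold and 1.62-fold, and Thbs1, which encodes thrombospondin 1, 2.57-fold and 2.46-fold, again in females and males.

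Many fibroblast markers rose with the rising members, and in females some adipocyte markers did as well. Of 14 fibroblast markers, 7 were higher and none lower in knockout females, and 8 were higher and 1 lower in knockout males. Among all genes tested, 5.28% were higher and 5.51% lower in females, and 7.6% and 8.29% in males. The falling marker was Scara5, with log2 changes of -0.33 in females (limma adjusted p = 0.080) and -0.36 in males (0.039). Col1a1, Col1a2 and Col3a1 stand in this list as in that of the ligands. The summed level of the fibroblast markers was 43444 to 57748 in knockout and 34005 to 42458 in wildtype females. In males it was 34559 to 46182 in knockout and 23358 to 38058 in wildtype mice. Gsn, the most abundant of them at a mean of 16982 in wildtype females, passed in neither sex (limma adjusted p = 0.15 and 0.25). Lum and Dcn were among the higher genes in both sexes, the defining marker Pdgfra rose in males (log2 change 0.57, limma adjusted p = 0.0024) and did not pass in females (0.18, adjusted p = 0.14), and Tcf21, another defining marker, passed in neither. Of 6 adipocyte markers tested in females, leaving out Retn, which reached the filter only through the knockout mice, Cidea, Cidec and Cfd were higher. The defining marker Adipoq had means of 108 ± 130.2 in knockout and 21.9 ± 19.6 in wildtype females (adjusted p = 0.069), and in males Fabp4 fell and no adipocyte marker rose. Endothelial markers had 3 of 14 lower and none higher in each sex, and mural markers 1 of 10 lower in each sex. Epithelial and lung markers, which bear on Lamb3 and Itgb6, were low, with summed levels of 46.3 to 185 in females and 44.8 to 68.6 in males. Of these Krt18 stood at 18.9 ± 6.08 in knockout and 7.17 ± 5.88 in wildtype females and at 17.7 ± 6.76 and 3.26 ± 1.13 in males, and it reached the filter only through the knockout mice. Wt1, a mesothelial and epicardial gene in this list, fell in males (log2 change -0.47, limma adjusted p = 0.045) and had -0.46 in females (0.12). No marker of these types that the tables list was at 0 in every mouse of a sex. The part of cell content in the members' changes was not tested. Atrial Myl7 was at 500 or more in ko_f_151, ko_f_154, wt_f_144 and wt_m_112, and without these mice the female calls were Itga5, Itga8, Itga9, Lama2 and Lamb3, and the male calls gained Itga8 and lost none.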

How the data were processed

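RNA of the left ventricle was sequenced on a BGISEQ-500, per the labels' protocols, and aligned with STAR 2.7.10a to GRCm39, per the submitters' processing notes, which also name DESeq2. The counting program, its strand setting and the annotation are not given in the sources used here. Each deposited gene table gives 1 signal value per gene and library, namely reads after division by the size factor that the authors fitted, and 100% of the values gave whole reads to a tolerance of 1e-06. The authors' log2 fold changes and adjusted p-values in those tables were used as an alternative. Exon bins were deposited as unscaled counts beside DEXSeq p-values of the authors. Both the gene and the exon tables hold 1 column per library. Whether the authors' tests joined the 2 libraries of a mouse is not known here, so their adjusted p may count libraries as replicates. One column of per-sample gene values, and its exon counts, matched no label and was not used (1 column), leaving 39 of 40 libraries.

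A mouse's value was the mean of its libraries. Libraries of 1 mouse differed by a chi-square per degree of freedom of 1.07 to 1.84 over genes with at least 20 reads, and libraries of different mice by 2.77 to 32.6. Nothing says more about how the mice were bred or caged. A gene was tested where its mean reached 10, using limma 3.58.1 (R 4.3.3) after log2(value + 1) transformation (trend, two-sided, Benjamini-Hochberg over all genes, threshold 0.05), within each sex and, over all 4 groups, for the male minus the female change. Fold changes are on that scale, which understates low genes. Had the tables held counts, edgeR would have been the first choice; edgeR 4.0.16 and DESeq2 1.42.0 were run on the recovered reads as alternatives and called 1330 and 1683 genes in females and 2063 and 2280 in males. Levels per length used exonic lengths of GENCODE M21, which lists all 38 members. A length was the union of all annotated exons of a gene, which can exceed its main transcript. Ranks and shares between genes depend on this choice. The script was tested on simulated data; the recovery required for the male minus female change was lowered after a first run, since that contrast has a wider error.

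The members and lists were chosen with earlier results of these data known. The results for 1 member are not reported here, and every count of members leaves it out. The other members are all accounted for, members past the threshold are given in every mouse, as are Lamc3 and near misses chosen after their values were seen, and for each of the 4 lists of genes that work with the members up to 4 genes per sex are named, those with the smallest p past the threshold. Platelet, fibroblast, lymphatic and epithelial genes beside the members, and neighbouring genes, were also chosen after seeing values. Intervals cover the spread between mice.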

Additional observations from a re-analysis of the deposited data

Results flagged for a closer look

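In 6 of 36 groups of 5 mice, for the 9 members given in every mouse, 1 mouse stood apart from the other 4 by more than 0.71 of the range of the group, which chance gives in about 1 in 20 groups. These were Itga2b in knockout males, where ko_m_127 had a normalised read count of 21.5 from 2 libraries of very unequal depth, and Itga9 in knockout females, where ko_f_155 had 937. Lama2 stood apart in ko_m_127 among knockout males (1431) and in wt_m_139 among wildtype males (768). Lamb3 was low in wt_f_144 among wildtype females (132), a mouse with high Myl7, and Lamc3 was high in wt_m_112 among wildtype males (5.35), also a mouse with high Myl7. Leaving out any 1 of these mice changed no call of Itga9, Lama2 in males or Lamb3.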

How the results depend on the processing

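Direction was kept under every alternative run for the members past or near the threshold. In females Itga5, Itga8, Itga9 and Lamb3, and in males Itga5, Itga9, Itgb5, Lama2 and Lamb3, passed under every alternative, each mouse left out included. Members higher in knockout females numbered 5, and 3 to 5 with a mouse left out, the 3 without ko_f_95, ko_f_154 or wt_f_140, where Itgb5 and Lama2 were lost. The authors' deposited table called 7, with Itga7 (authors' DESeq2 adjusted p = 0.033) and Lamc3 added. Members lower in knockout females numbered 1, and 3 by DESeq2 (Itga6 and Itgb6 added), 4 in the authors' deposited table and 1 to 2 with a mouse left out (Itga6 added without ko_f_95). Members lower in knockout males numbered 2, and 1 with a filter at a mean of 50, which drops Itga2b. With a mouse left out they numbered 1 to 3 (Itga2b lost without wt_m_124, Itgb1bp2 added without ko_m_97). Members higher in knockout males numbered 5, 6 with TMM scaling or edgeR (Itga11 added) and 7 by DESeq2 (Lamb1 added too). With a mouse left out they numbered 4 to 7. The authors' deposited table called 11. Of those added there, Itgax and Lamc3 were below the filter. The others, Itga8, Itga11, Lamb1 and Lamc1 (authors' DESeq2 adjusted p = 0.039), were tested here and did not pass. The cause was not tested. The authors' table also called Itgb1bp2 lower in males. A filter at a mean of 1 added Lamc3 in both sexes and Itgax in males. Members whose change differed between the sexes stayed at 0, and those with a changed exon bin in males numbered 3, and 2 at an adjusted p of at most 0.01, without Itgb8. No paired analysis was possible because the mouse numbers are not shared between groups. Members under a mean of 10 were tested only with the lower filter and in the authors' table. Lamc3 in males also reached the filter with some single mice left out. The 5 mice per group limit what small changes can be seen.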
